A study of Mus musculus with 8 samples.

Results

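The genes described here are 10 that sense bile acids or carry the bile acid signal in liver: the nuclear receptors Nr1h4 (FXR), Rxra, Nr0b2 (SHP) and Nr5a2 (LRH-1), the FXR target genes Mafg and Osgin1, the receptor Fgfr4 with its co-receptor Klb, and the membrane receptors Gpbar1 (TGR5) and S1pr2. They were chosen by symbol, and each matched 1 Ensembl gene among the 48440 of the deposited count table. RNA sequencing was done on whole livers of 4 CD1 pups with a germline deletion of Myo5b, called knockout livers, and of 4 control littermates. The controls were wildtype or heterozygous, and the labels do not say which pup was which. Pups were taken 3 to 8 days after birth, and neither the age, sex nor litter of a single pup is given. The deletion is germline and so is carried by every cell of the body, not by the liver alone.

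FXR is a nuclear receptor that binds bile acids and pairs with RXR-alpha on DNA. In hepatocytes it induces SHP, which blocks LRH-1 and thereby lowers transcription of the bile acid synthesis enzymes, and it induces genes that export bile salts. In the ileum FXR induces the hormone FGF15, which reaches the liver in portal blood and represses bile acid synthesis through FGFR4 and beta-Klotho on hepatocytes. The product of Myo5b, myosin Vb, moves recycling endosomes along actin to the apical membrane, where the canalicular bile salt pumps sit.

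The promoter windows of the FXR targets that rose and of the receptor and co-receptor that fell are shown so that the start of each of these transcripts can be read beside its level. Each window spans 250 bases before to 50 bases after a RefSeq gene start on GRCm38.p6. Nr0b2 lies at chr4:133553126-133553425 (plus strand), Osgin1 at chr8:119436897-119437196 (plus strand), Fgfr4 at chr13:55152568-55152867 (plus strand) and Klb at chr5:65348161-65348460 (plus strand). The Osgin1 window starts inside the gene as GENCODE M21 draws it, at a start downstream of that annotation's first base. The Fgfr4 and Klb windows begin before the genes so drawn, but their RefSeq starts too lie downstream of that annotation's first base. Capitals mark the motif matches described after the sequences.
Nr0b2: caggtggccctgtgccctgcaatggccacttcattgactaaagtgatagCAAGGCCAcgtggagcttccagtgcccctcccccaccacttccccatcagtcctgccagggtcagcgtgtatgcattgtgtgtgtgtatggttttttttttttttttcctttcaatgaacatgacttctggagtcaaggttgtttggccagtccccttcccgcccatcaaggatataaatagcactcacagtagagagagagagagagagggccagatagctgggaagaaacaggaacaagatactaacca
Osgin1: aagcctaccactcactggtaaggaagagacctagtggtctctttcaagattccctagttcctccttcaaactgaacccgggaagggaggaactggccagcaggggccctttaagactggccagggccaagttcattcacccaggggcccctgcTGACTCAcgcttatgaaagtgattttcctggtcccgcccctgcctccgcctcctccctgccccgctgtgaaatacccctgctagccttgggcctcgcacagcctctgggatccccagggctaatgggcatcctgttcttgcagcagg
Fgfr4: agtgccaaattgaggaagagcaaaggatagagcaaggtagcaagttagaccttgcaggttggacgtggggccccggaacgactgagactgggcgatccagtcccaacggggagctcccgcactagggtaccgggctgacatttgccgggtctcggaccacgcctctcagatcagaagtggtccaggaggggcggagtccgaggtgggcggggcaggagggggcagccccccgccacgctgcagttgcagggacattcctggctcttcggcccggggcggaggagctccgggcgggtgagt
Klb: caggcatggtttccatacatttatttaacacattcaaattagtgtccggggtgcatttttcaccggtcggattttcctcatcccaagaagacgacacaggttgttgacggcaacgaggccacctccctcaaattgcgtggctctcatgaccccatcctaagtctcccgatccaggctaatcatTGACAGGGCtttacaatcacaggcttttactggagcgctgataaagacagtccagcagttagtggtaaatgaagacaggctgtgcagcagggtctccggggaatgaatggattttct

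The motifs were searched on both strands of the 32851 RefSeq windows, 12 of which belong to the 10 genes. The Nr0b2 window holds CAAGGCCA, a form of the LRH-1 site, 201 bases before the start, and 2.4% of all windows hold that form. The T form of the site, CAAGGTCA, which contains AGGTCA, is in 1.56% of all windows and in none of the 12. The Osgin1 window holds TGACTCA, the AP-1 site, 97 bases before its start, as do 5.2% of all windows. The Klb window holds TGACNNNGC, the antioxidant response element, as do the Mafg window and 12.4% of all windows. In Klb the match lies inside the gene as GENCODE M21 draws it. AGGTCA, the core hexamer of many nuclear receptor sites, is in 4 of the 12 windows (Nr1h4, Rxra, Nr5a2 and S1pr2) and in 16.3% of all. No member window holds the FXR element IR-1, an inverted repeat of AGGTCA with 1 base between, even with up to 2 mismatches, a form found in 1.14% of all windows. The Fgfr4 window holds none of these motifs. A match describes the letters of the window and is not a measured site, and sites outside the windows were not searched.

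Library totals ran from 15134291 to 18398039 counts in knockout livers and from 14228268 to 17007771 in control livers, and each library is a separate animal. Myo5b itself was 2.69-fold lower, with 49.3 ± 7.06 CPM in knockouts and 133 ± 33.1 CPM in controls (SD, n = 4 each; log2 fold change -1.43, adjusted p = 3.14e-04). CPM are counts relative to a TMM-scaled library size, and adjusted p-values here are from edgeR's quasi-likelihood test with Benjamini-Hochberg adjustment over 18274 genes. Of these, 1694 were higher and 2088 lower in knockout livers, and with library size as the only scaling 2300 were higher and 1696 lower. Markers of other cells moved with genotype: all 10 measured erythroid markers fell, with summed levels of 1755 to 3584 CPM in knockout livers against 7103 to 9314 CPM in control livers. In the other direction 10 of 11 Kupffer cell markers rose (1574 to 1824 CPM in knockout livers against 878 to 1005 CPM in control livers), as did 6 of 8 endothelial markers. Of 9 hepatocyte markers, 3 fell and 1 rose, and their sums were 82947 to 95849 CPM in knockout livers against 106285 to 134321 CPM in control livers. None of the listed markers that the table holds was at 0 in every library. The part of these shifts in the results below was not tested.

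Among the 10 bile acid sensing genes, Fgfr4, Klb and Nr1h4 fell and Osgin1 and Nr0b2 rose. The other 4 that were tested, Nr5a2, Rxra, Mafg and S1pr2, did not pass the threshold, and Gpbar1 was below the count filter. The test thus called 5 of 9, against 20.7% of all genes tested, with 9.27% of all called higher and 11.4% called lower. The median log2 fold change was -0.03 over the 9 genes and 0.01 over all genes tested. Every knockout library lay outside the range of the controls for 3 of the 9 (Fgfr4, Klb and Osgin1), as for 23.6% of all genes tested. In whole liver, fewer cells of a type and less RNA per cell cannot be told apart.

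**Figure D1:**
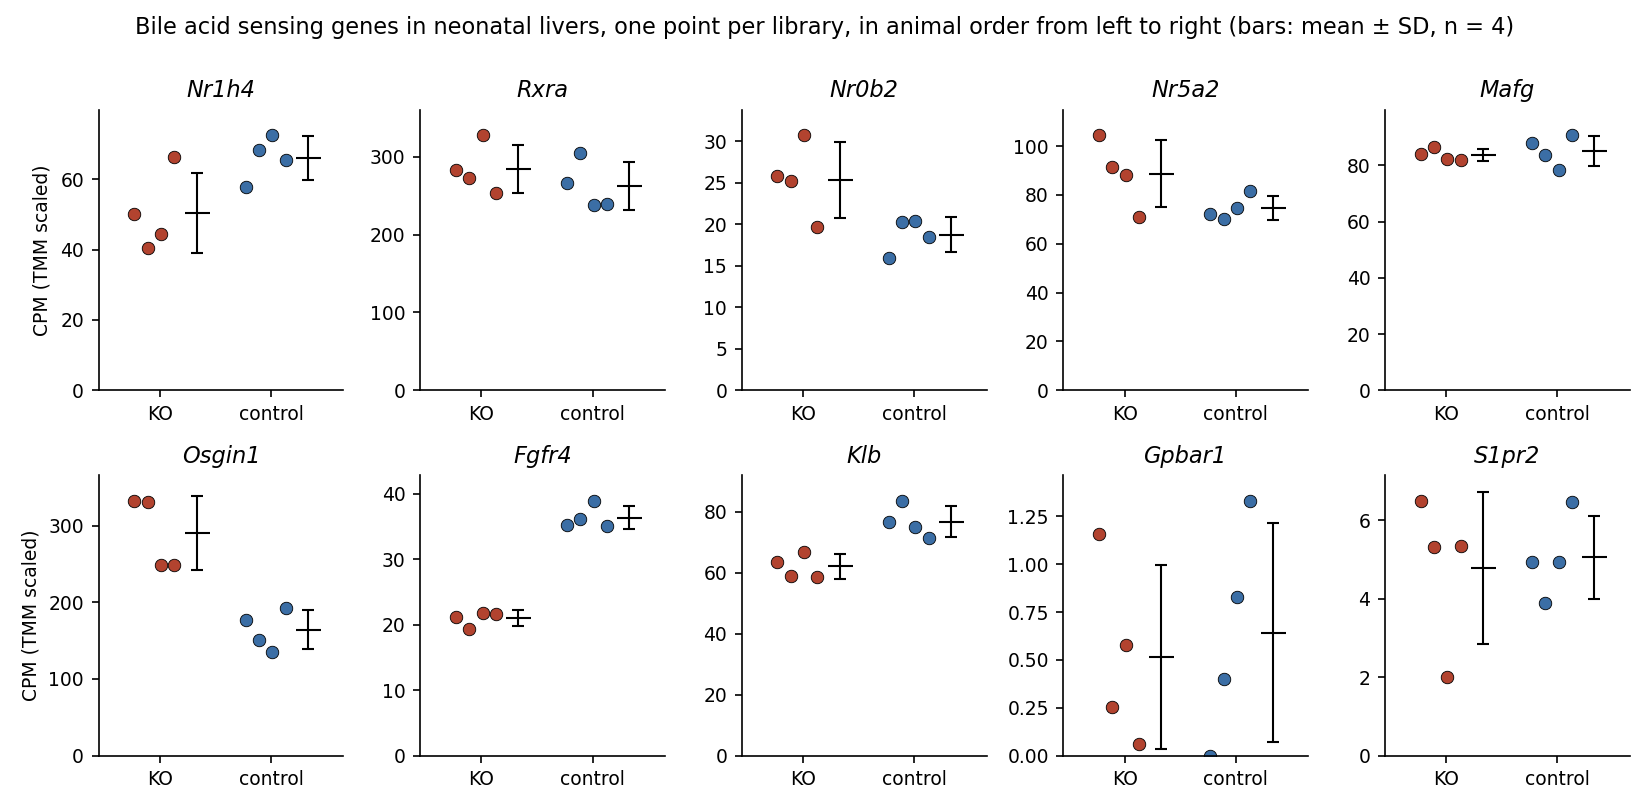
CPM of the 10 genes in each library, knockout (red) left of control (blue), with points in animal order and bars for the mean ± SD of 4 livers. Fgfr4 and Klb are lower and Osgin1 higher in all 4 knockout livers than in any control, while knockout 278, the last red point, sits among the controls for Nr1h4, Nr0b2 and Nr5a2.

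Nr1h4 encodes FXR, the receptor at the head of the pathway (chromosome 10, 89454234 to 89533585, GRCm38). Its level was 50.1, 40.5, 44.6 and 66.3 CPM in knockout livers 275, 276, 277 and 278, against 57.9, 68.3, 72.6 and 65.6 CPM in control livers 279, 280, 281 and 282. The first 3 knockouts lay below every control and knockout 278 lay among them, so the groups overlapped. Nr1h4 averaged 50.3 ± 11.3 CPM in knockout livers and 66.1 ± 6.16 CPM in control livers (SD, n = 4 each), 1.31-fold lower, with a log2 fold change of -0.39 (SE 0.13) and an edgeR adjusted p of 0.0492. The call stood only just past the threshold, and it was lost with median-ratio, upper-quartile or library-size scaling, with non-robust dispersion and with a Y-linked covariate. Leaving out knockout 275 (-0.39), 276 (-0.31) or 277 (-0.34) ended it, as did leaving out control 280 (-0.38), 281 (-0.35) or 282 (-0.40), and it held without knockout 278 (-0.55, adjusted p = 0.00123). Knockout 278 also had the highest summed erythroid markers of the knockouts, 3584 CPM, with 1755 to 2444 CPM in the other knockouts.

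Rxra encodes RXR-alpha, the partner of FXR and of many other nuclear receptors. It had 283, 273, 328 and 254 CPM in the 4 knockout livers against 266, 305, 239 and 240 CPM in the 4 control livers, and the ranges overlapped. Its log2 fold change was 0.12, with a 95% confidence interval of -0.09 to 0.33 (adjusted p = 0.457). The log2 ratio of Nr1h4 to Rxra within a library was -2.51 ± 0.42 in knockout livers and -1.98 ± 0.23 in control livers (SD, n = 4 each). That difference of -0.53 did not pass an exact two-sided permutation test (p = 0.0857, adjusted p = 0.129 over 3 ratios). Knockout 278, with a ratio of -1.94, was the only knockout to lie among the controls. Without it the groups were fully apart, which alone puts the exact p at its smallest possible value. The difference was then -0.72 and passed (adjusted exact p = 0.0429), an outcome set by which library was left out. Without any other single library it did not pass (adjusted exact p = 0.129 to 0.257).

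Nr0b2 encodes SHP, a nuclear receptor without a DNA-binding domain that FXR induces and that represses by binding other receptors (chromosome 4, 133553376 to 133556536). It had 25.9, 25.2, 30.8 and 19.7 CPM in knockout livers 275 to 278, against 16.0, 20.3, 20.4 and 18.4 CPM in control livers 279 to 282. The first 3 knockouts lay above every control and knockout 278 among them. Nr0b2 averaged 25.4 ± 4.54 CPM in knockout livers and 18.8 ± 2.07 CPM in control livers (SD, n = 4 each), a log2 fold change of 0.43 (SE 0.14, adjusted p = 0.0405). The call was lost when any library other than knockout 278 was left out, at 0.32 (without knockout 277) to 0.47 (without control 281), and was 0.54 without knockout 278 (adjusted p = 0.00886). Both genes changed sign, with no call, when an erythroid score was added as a covariate (Nr1h4 0.23, Nr0b2 -0.56), a score that had a correlation of -0.95 with genotype.

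Nr5a2 encodes LRH-1, the activator of bile acid synthesis genes that SHP blocks. It had 104, 91.3, 88.3 and 70.8 CPM in the knockout livers against 72.1, 70.3, 74.7 and 81.5 CPM in the control livers. Here too knockouts 275, 276 and 277 were above every control and knockout 278 was not. The log2 fold change was 0.25 (95% interval 0.03 to 0.47) and did not pass the threshold (adjusted p = 0.109), while without knockout 278 it was 0.34 and did (adjusted p = 0.0129). The log2 ratio of Nr0b2 to Nr5a2 was -1.81 ± 0.21 in knockout livers and -1.99 ± 0.19 in control livers (SD, n = 4 each), a difference of 0.18 that did not pass an exact two-sided permutation test (p = 0.229).

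Osgin1, a growth inhibitor that FXR induces and that oxidative stress also induces through NRF2, rose the most of the 10 genes. It had 333, 331, 248 and 249 CPM in the knockout livers against 177, 151, 135 and 192 CPM in the control livers. All knockouts were above all controls, and knockouts 275 and 276 were higher than the other knockouts. Its mean was 290 ± 47.9 CPM in knockout livers and 164 ± 25.5 CPM in control livers (SD, n = 4 each), 1.77-fold higher (log2 fold change 0.82, SE 0.13, adjusted p = 5.03e-04). It kept its call without any single library, at 0.74 to 0.90.

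Mafg, a transcriptional repressor that FXR induces and that lowers bile acid synthesis genes, did not pass the threshold. It had 83.9, 86.5, 82.3 and 82.0 CPM in the knockout livers against 87.9, 83.8, 78.4 and 90.7 CPM in the control livers. The log2 fold change was -0.03 with a 95% interval of -0.19 to 0.14 (adjusted p = 0.861). A change as large as that of Nr0b2 or Osgin1 is outside that interval. The gene shares 124 exonic bases with Sirt7, so a few of its counts could belong to that neighbour.

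Fgfr4 encodes the hepatocyte receptor of FGF15 (chromosome 13, 55152640 to 55168759) and fell the most of the 10 genes. It had 21.2, 19.3, 21.9 and 21.7 CPM in the knockout livers against 35.2, 36.2, 38.9 and 35.1 CPM in the control livers. The groups were far apart and each was tight. Its mean of 21.0 ± 1.17 CPM in knockout livers, against 36.4 ± 1.80 CPM in control livers (SD, n = 4 each), was 1.73-fold lower (log2 fold change -0.79, SE 0.11, adjusted p = 4.92e-05). Without any single library the log2 fold change was -0.82 to -0.76 and the call held.

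Klb encodes beta-Klotho, the co-receptor that FGFR4 needs to bind FGF15 (chromosome 5, 65348314 to 65384007). It had 63.6, 59.1, 66.9 and 58.6 CPM in the knockout livers against 76.7, 83.6, 75.0 and 71.5 CPM in the control livers. Every knockout was below every control, by a smaller margin than for Fgfr4. The log2 fold change was -0.31 (SE 0.09, adjusted p = 0.0175), a call that ended when knockout 276 (-0.29) or control 280 (-0.26) was left out and with library size as the only scaling (-0.24). The log2 ratio of Fgfr4 to Klb was -1.56 ± 0.09 in knockout livers and -1.07 ± 0.11 in control livers (SD, n = 4 each). All 4 knockout ratios lay below all control ratios, a difference of -0.48 with an exact two-sided permutation p of 0.0286, the smallest that 4 against 4 allows. Adjusted over the 3 ratios it did not pass (adjusted exact p = 0.0857). A lone ratio at that smallest p cannot pass after this adjustment, however large its difference. Without knockout 278 the difference was -0.52 (adjusted exact p = 0.0429). That adjusted p was lower only because the Nr1h4 to Rxra ratio then also reached the smallest p, not because of the Fgfr4 to Klb values.

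**Figure D2:**
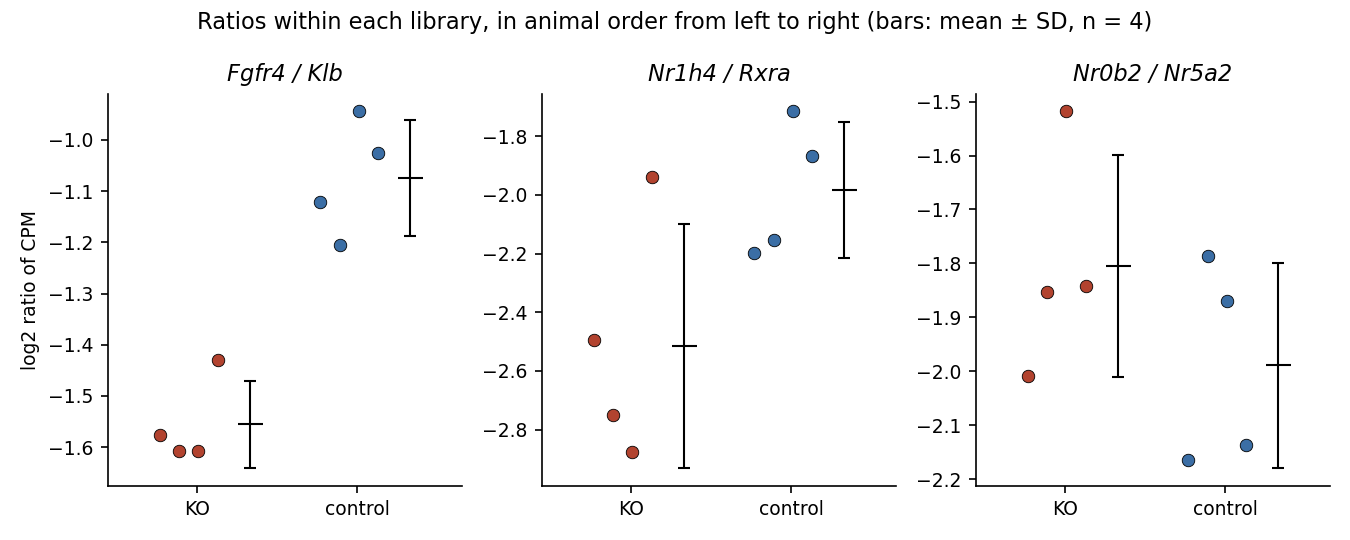
Log2 ratio of CPM of Fgfr4 to Klb, Nr1h4 to Rxra and Nr0b2 to Nr5a2 within each library, knockout (red) left of control (blue), in animal order, with bars for the mean ± SD of 4 livers. The Fgfr4 to Klb ratios of the 2 genotypes do not overlap, and knockout 278 lies among the controls for Nr1h4 to Rxra.

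The membrane receptors were the lowest of the set. Gpbar1, the bile acid receptor of Kupffer cells, endothelium and biliary epithelium, had 20, 4, 11 and 1 counts in the knockout livers against 0, 6, 14 and 19 counts in the control livers. It was too low for the test, and no difference was detectable at this depth. The Kupffer and endothelial marker sums were higher in every knockout than in any control, and their part in the Gpbar1 counts was not tested. S1pr2, a sphingosine 1-phosphate receptor that conjugated bile acids also activate, had 6.50, 5.30, 2.0 and 5.34 CPM in the knockout livers against 4.94, 3.89, 4.93 and 6.45 CPM in the control livers. Knockout 277 was the lowest of all libraries and the groups overlapped (log2 fold change -0.08, 95% interval -0.73 to 0.57, adjusted p = 0.891).

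Levels can be compared between genes once divided by exon length, here as RPKM, CPM divided by the kilobases of summed exons. Osgin1 was the highest in both groups, at 108 ± 17.9 RPKM in knockout livers and 61.3 ± 9.52 RPKM in control livers (SD, n = 4 each), followed by Rxra at 52.1 ± 5.74 and 48.0 ± 5.68 RPKM. In controls their ranges overlapped, and in knockouts they did not. In knockout livers Nr0b2 (22.4 ± 4.01 RPKM), Nr1h4 (21.9 ± 4.92), Nr5a2 (15.04 ± 2.35), Mafg (14.9 ± 0.37) and Klb (13.6 ± 0.87) came next. Each of these overlapped its neighbour in that order, Mafg and Klb by the least. In control livers the order was Nr1h4 (28.7 ± 2.67 RPKM), Klb (16.9 ± 1.12), Nr0b2 (16.6 ± 1.83), Mafg (15.2 ± 0.95) and Nr5a2 (12.7 ± 0.83). There Nr1h4 stood above the rest, Klb, Nr0b2 and Mafg overlapped, and Nr5a2 was below them. The level of Nr0b2 overlapped that of Nr1h4 in knockout livers and was below it in every control liver. Fgfr4 followed in both groups, at 5.93 ± 0.33 RPKM in knockout livers and 10.3 ± 0.51 RPKM in control livers. S1pr2 (0.600 ± 0.243 in knockout and 0.634 ± 0.132 RPKM in control livers) and Gpbar1 (0.478 ± 0.447 and 0.597 ± 0.532 RPKM) were last and overlapped.

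Whether the targets of the receptor move as its activation or its loss would move them was asked with genes known to respond to it, some of them known from human or rat liver cells. Besides Nr0b2, Osgin1 and Mafg, 16 of 17 other genes that FXR is known to induce were tested, of which 4 rose and 4 fell (median log2 fold change 0.27). Thus 8 of 16 were called, against 20.7% of all genes tested. Cidec, a lipid droplet protein, rose the most of the called ones, with 8.81 ± 3.80 CPM in knockouts and 1.75 ± 1.24 CPM in controls (SD, n = 4 each; log2 fold change 2.33, SE 0.44, adjusted p = 0.00290). Pltp, the phospholipid transfer protein, Insig2, which restrains sterol synthesis, and Abcc2, a canalicular exporter of conjugates, rose by 0.53, 0.53 and 0.34 on the log2 scale, and for Insig2 and Abcc2 the groups overlapped. The Abcc2 call was lost without knockout 275 (0.27) or control 279 (0.30). Sdc1, a heparan sulfate proteoglycan whose induction by FXR is known from human hepatocytes, fell the most, with 112 ± 21.8 CPM in knockouts and 229 ± 20.5 CPM in controls (log2 fold change -1.03, SE 0.12, adjusted p = 3.84e-05). Fetub, a secreted fetuin whose induction was shown in human liver cells, fell by 0.45, Slc27a5, which activates bile acids for conjugation, by 0.35, and Abcb11, the bile salt export pump, by 0.32. The Abcb11 call was lost without control 279 (-0.27). Fgf21, a hepatic fasting hormone, had 9.46, 15.1, 16.4 and 57.3 CPM in the knockout livers against 5.00, 6.30, 4.99 and 2.66 CPM in the control livers. Knockout 278 stood far above the other knockouts. The log2 fold change was 2.37 with all libraries (edgeR adjusted p = 0.0541) and 1.52 without knockout 278, where it passed the threshold (adjusted p = 4.80e-04). Fgf21 passed under 8 of 19 alternatives in all, among them without knockout 275 (2.64) and with DESeq2 (2.38) and limma-voom (1.92). The basolateral bile acid exporter is made of 2 subunits. Slc51b had a log2 fold change of 0.56 (adjusted p = 0.185), and Slc51a was below the count filter at 0.211 to 0.546 CPM in knockout livers against 0.491 to 1.13 CPM in control livers.

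Of 5 genes that bile acid signalling is known to repress, 2 fell, 1 rose and 2 did not pass. Thus 3 of 5 were called, against 20.7% of all genes tested. Cyp8b1, the sterol 12-alpha-hydroxylase, had 44.6, 52.9, 73.9 and 81.7 CPM in the knockout livers against 171, 237, 201 and 173 CPM in the control livers (log2 fold change -1.63, SE 0.21, adjusted p = 7.93e-04). Cyp7a1, whose enzyme sets the pace of the classical pathway, had 10.4, 2.88, 9.48 and 12.9 CPM in the knockout livers against 21.7, 30.3, 34.3 and 24.1 CPM in the control livers. All knockouts were below all controls for both enzymes. The Cyp7a1 change (-1.62, SE 0.40, adjusted p = 0.0271) lost its call without knockout 275 (-1.70) or 277 (-1.66) or control 280 (-1.58) or 281 (-1.50). Cyp27a1, which starts the alternative pathway, rose to 19.98 ± 1.94 CPM in knockout livers, against 13.1 ± 1.77 CPM in control livers (log2 fold change 0.60, SE 0.14, adjusted p = 0.00553). Cyp7b1, the next enzyme of that pathway, was low, with a log2 fold change of 0.90 (adjusted p = 0.198). Slc10a1, the bile acid uptake carrier, had -0.15 (95% interval -0.35 to 0.04, adjusted p = 0.268).

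Counted together, 24 genes with a known response were tested. The direction that FXR activation is known to give was seen for 8 called genes: Nr0b2, Osgin1, Cidec, Pltp, Insig2 and Abcc2 higher, and Cyp7a1 and Cyp8b1 lower. The opposite direction was seen for 5: Abcb11, Slc27a5, Fetub and Sdc1 lower, and Cyp27a1 higher. The remaining 11 did not pass the threshold. Among them, every knockout was above every control for Apoc2 (0.83, adjusted p = 0.0518), Abcb4 (0.20, adjusted p = 0.0873) and Fgf21. For none of them was every knockout below every control. The counts depend on the setting: of the 16 other induced genes, 5 were called higher with median-ratio scaling, 6 with DESeq2 and 7 with library size alone. In each of these settings 4 were called lower. Without control 279, 3 were called higher and 3 lower, and with the erythroid covariate 0 and 0. Not all the calls counted above were firm when each of the 8 libraries was left out in turn. In the activation direction Nr0b2 lost its call in 7 of these fits, Cyp7a1 in 4 and Abcc2 in 2. In the opposite direction Abcb11 lost its call in 1. Of all genes tested 9.27% were called higher and 11.4% lower.

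**Figure D3:**
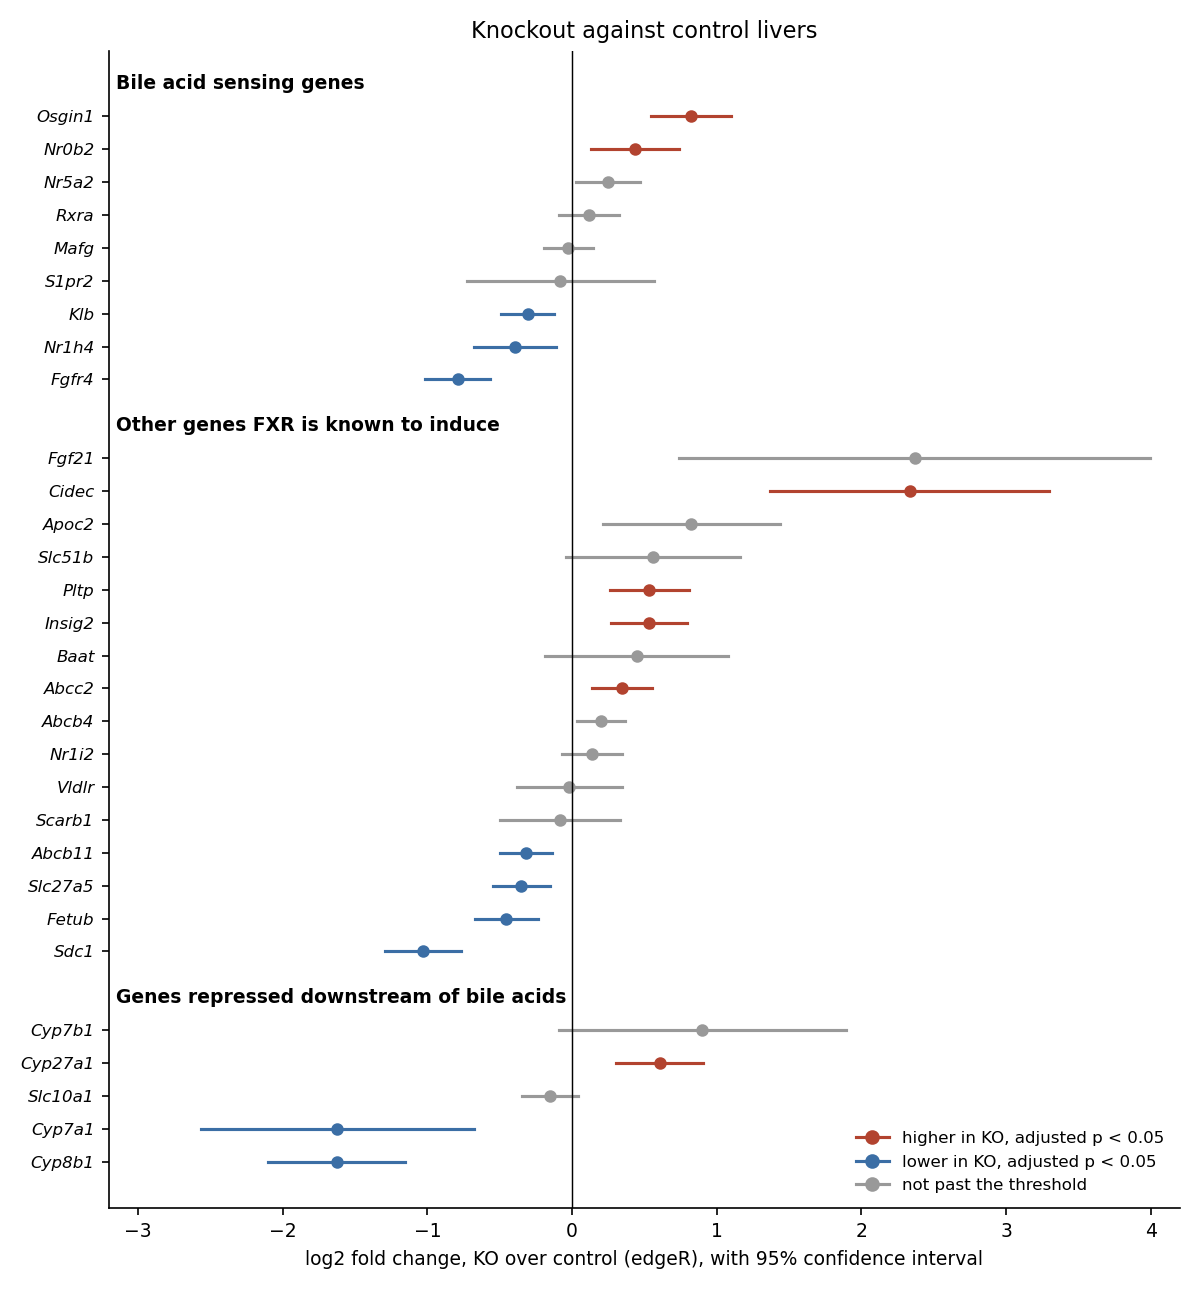
Log2 fold change, knockout over control, with its 95% confidence interval for the 9 tested bile acid sensing genes, 16 other genes that FXR is known to induce and 5 genes that bile acid signalling represses. Red marks genes higher and blue genes lower in knockouts (adjusted p threshold 0.05), and each of the 3 groups holds both colours.

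The other genes of FGF signalling were counted beside Fgfr4 and Klb. Fgf15, the ileal ligand, was at 0 in every liver library. Of 21 genes of FGF receptors, adaptors and feedback, 19 were tested, 5 rose and 0 fell by edgeR (median log2 fold change 0.10), so that 5 of 19 were called, against 20.7% of all genes tested. At an unadjusted p under 0.05 edgeR had 1 lower, and DESeq2 and limma-voom each called 1 lower, as edgeR did without knockout 278. Egr1, an immediate early transcription factor of the ERK pathway, rose the most, with 206, 243, 95.2 and 107 CPM in the knockout livers against 20.5, 19.2, 31.9 and 40.0 CPM in the control livers (log2 fold change 2.55, SE 0.43, adjusted p = 0.00837). Spred1, which inhibits RAS and ERK signalling, rose to 93.4 ± 6.90 CPM in knockout livers, against 58.9 ± 4.91 CPM in control livers (0.67, adjusted p = 5.66e-05). Etv5, an ERK-responsive ETS factor, rose by 0.66, Spred2 by 0.41 and the receptor Fgfr2 by 0.35. The Fgfr2 call was lost without knockout 276 (0.31) or 277 (0.27), or control 280 (0.33), 281 (0.33) or 282 (0.34). Fgfr1 (log2 fold change -0.21, adjusted p = 0.404), Fgfr3 (-0.06, adjusted p = 0.862) and the feedback gene Dusp6 (0.20, adjusted p = 0.157) did not pass.

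Of the partners of the sensing genes, 3 of 17 co-regulators, 7 of 12 small MAF partners, 4 of 13 RXR partners and 2 of 8 other receptors were called, against 20.7% of all genes tested. Of 18 FXR co-regulators and liver transcription factors, 17 were tested, of which Ncoa3, a coactivator, rose (0.49, SE 0.09) and the corepressor enzyme gene Hdac3 (-0.56, SE 0.12) and the arginine methyltransferase gene Prmt1 (-0.56, SE 0.14) fell. Hnf4a, the hepatocyte factor that acts on the same enzyme promoters, had 0.07 (adjusted p = 0.617). Of 12 partners and targets of small MAF proteins, 6 rose and 1 fell. Maff, a sister gene of Mafg, rose 4.87-fold, with 15.6 ± 3.57 CPM in knockout livers against 3.21 ± 0.805 CPM in control livers, and Bach1, a repressor that pairs with MAF proteins, rose 2.08-fold. Gclm, a glutathione synthesis gene under NRF2, fell (-0.81, SE 0.09), and Nfe2l2, which encodes NRF2, had -0.08 (adjusted p = 0.617). The other called genes of this group all rose: Hmox1 (0.72), Bach2 (0.54), Keap1 (0.35) and Nfe2l1 (0.32). Nqo1 (-0.86, adjusted p = 0.0628), Srxn1 (0.60, adjusted p = 0.113), Txnrd1 (0.22, adjusted p = 0.0634) and Mafk (0.04, adjusted p = 0.868) did not pass. With single libraries left out, 5 to 7 of the 12 were called higher and 1 to 2 lower. Of 13 other RXR family members and partners, 3 rose (Pparg 0.85, Nr1h2 0.52 and Rarg 0.59) and 1 fell (Ppara, -0.25). The Rarg call was lost when knockout 275 (0.55) or 277 (0.49), or control 280 (0.51) or 281 (0.50), was left out. The Ppara call was lost without knockout 275 (-0.23) or 278 (-0.23), or control 279 (-0.25) or 282 (-0.23), and under 6 of 11 other alternatives. Of 10 other bile acid and sphingosine 1-phosphate receptors and kinases, 8 were tested and 2 fell, S1pr1 (-0.83, SE 0.10) and Sphk1 (-2.06, SE 0.36). S1pr3 (0.27, adjusted p = 0.369) did not pass. S1pr1 is an endothelial receptor, and 6 of 8 endothelial markers rose in the same livers. The part of cell composition in the S1pr1 level was not tested.

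The genes whose profile over the 8 libraries was most like that of Fgfr4, the member with the smallest p, were Fut8, a fucosyltransferase, Mbl1, a mannose-binding lectin, and Derl2, of ER protein disposal. The root mean square distance between centred log2 CPM profiles was 0.05, 0.07 and 0.07, among 12172 tested genes with a mean of at least 5 CPM. All 3 fell, by 0.83, 0.83 and 0.71 on the log2 scale.

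**Figure D4:**
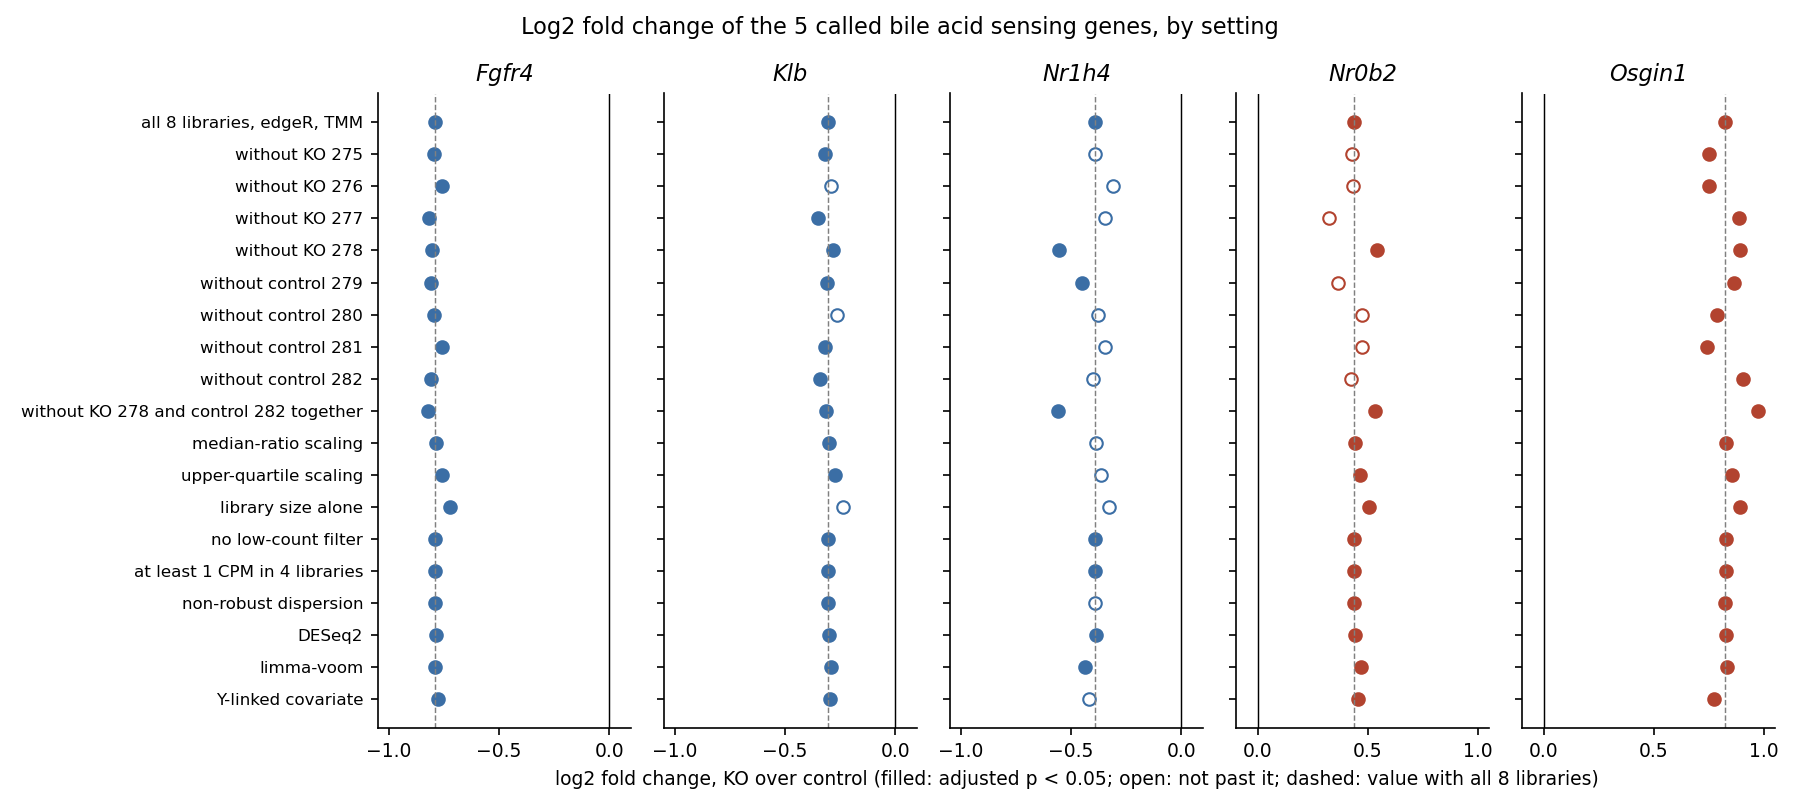
Log2 fold change, knockout over control, of the 5 called genes with all 8 libraries, without each library, without knockout 278 and control 282 together, and under other scalings, filters and tools. Filled points pass an adjusted p of 0.05 and open points do not: Fgfr4 and Osgin1 are filled in every row shown, while Nr1h4 and Nr0b2 are open without most single libraries. The fit with an erythroid covariate is not drawn.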

How the data were processed

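Whole-liver RNA of 8 pups was sequenced, and reads were aligned with Rsubread 2.20.0 in R 4.4.1 to a build written GRMm38 (read as GRCm38), per the labels' protocols. The values deposited by the authors are whole-number counts of reads for each Ensembl gene, and featureCounts is named in the submitters' processing notes. Which annotation and strand setting were used, and how reads mapping to several places were counted, is not given in the sources used here. Of 48440 identifiers, 48058 matched GENCODE M21 symbols, whose coordinates and exon lengths are used.

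Differential expression was fitted on these counts in R 4.3.3 with edgeR 4.0.16, using limma 3.58.1: filterByExpr (minimum count 10, minimum total 15), TMM, robust quasi-likelihood F-test, Benjamini-Hochberg threshold 0.05. The SE is the log2 fold change over the square root of F. Intervals are 95%. Log2 CPM use a prior count of 2. Ratios were compared by exact two-sided permutation over 70 assignments. Promoter windows are from RefSeq (GRCm38.p6). The fit was tested on simulated data.

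The members and gene lists were chosen with earlier results of these data known. Genes named are the 10 members, Myo5b, the 5 repressed genes, the 3 smallest p in each other list and the 3 profiles most like that of the top member. Others were named after their values were seen. Among them were Abcb11, Abcb4, Apoc2, Fgf21, Slc51a, Slc51b, Fgf15, Fgfr1, Fgfr3 and Dusp6. Hnf4a, Nfe2l2, Mafk, Nqo1, Srxn1, Txnrd1, Ppara and the remaining called list genes were named in the same way. The symbols Tf and Ahsp of the marker lists matched no gene. No replicate number is shared between the genotypes, so nothing was paired. Within a genotype every 2 libraries differed by more than counting noise (chi-square over its degrees of freedom, 12.9 to 24.0). The alternatives were other scalings, filters, dispersion, DESeq2 1.42.0, limma-voom, erythroid and Y-linked covariates, another prior count and libraries left out. Figures were drawn with matplotlib 3.10.9.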

Additional observations from a re-analysis of the deposited data

Results flagged for a closer look

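Of 54 genes examined, 6 had a library far from the other 3 of its genotype, by the gap to the nearest library over the range of the group. Chance flags about 1 in 20 groups, and 108 groups were examined. Abcb4, Apoc2, Hmox1, Bach2, Keap1, Nfe2l1, Mafk, Nqo1, Srxn1 and Txnrd1, named above, were not among the 54. The alternatives were also not read gene by gene for these. Pparg was 26.9 CPM in knockout 277, against 22.5 to 23.2 CPM in the other knockouts. Sphk1 was 3.94 CPM in knockout 278, against 1.16 to 1.53 CPM in the other knockouts. Fgf21 was 57.3 CPM in knockout 278, against 9.46 to 16.4 CPM in the other knockouts. Fgfr1 was 9.22 CPM in knockout 278, against 13.5 to 13.7 CPM in the other knockouts. Fgfr2 was 91.4 CPM in control 279, against 77.8 to 79.7 CPM in the other controls. Spred2 was 21.9 CPM in control 280, against 19.8 to 20.1 CPM in the other controls. None of the 10 bile acid sensing genes had such a library.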

How the results depend on the processing

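Of the sensing genes, Fgfr4 and Osgin1 lost their call under 1 of 19 alternatives, the erythroid covariate, and kept their direction under all 19. The covariate had a correlation of -0.95 with genotype and a variance inflation of 9.75. With it, 24 genes were higher and 16 lower in all, 0 sensing genes were higher and 0 lower, 0 FXR-induced genes were higher and 0 lower, and 0 repressed genes were higher and 0 lower. In that fit Nr1h4 turned to 0.23, Nr0b2 to -0.56, Fetub to 0.14, Prmt1 to 0.061, Sphk1 to 0.87, Abcc2 to -0.38 and Fgfr2 to -0.097, none called, and Fgfr4 was -0.84 and Osgin1 0.69. With library size alone, 1 sensing gene was lower (Klb and Nr1h4 lost their calls), 3 were higher (Nr5a2 gained one, at 0.32) and 7 FXR-induced genes were higher. Cyp7a1 lost its call in the fit that kept every low-count gene and in the Y-linked fit, leaving 1 repressed gene lower in each. Nr1h4 also lost its call with median-ratio scaling, upper-quartile scaling, non-robust dispersion and the Y-linked covariate.

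With single libraries left out, 1 to 3 sensing genes were higher and 1 to 3 lower, 3 to 6 FXR-induced genes were higher and 3 to 4 lower, 1 repressed gene was higher in every case and 1 to 2 were lower, and 1223 to 1762 genes were higher and 1699 to 2167 lower in all. The ratio differences ran from -0.53 to -0.44 for Fgfr4 to Klb, from -0.72 to -0.41 for Nr1h4 to Rxra and from 0.09 to 0.25 for Nr0b2 to Nr5a2. Control 282 had the lowest total counts, yet 29225 genes with at least 1 count, against 24225 to 26813 in the other controls. Without both knockout 278 and control 282, all 5 calls stood and Nr5a2 was added (0.39). The same calls were made without knockout 278 alone. DESeq2 and limma-voom made the same 5 calls. No paired analysis was possible because the genotypes share no replicate number. The cause of these changes was not tested. Depth limits Gpbar1 and S1pr2 most.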
